A study of Mus musculus with 4 samples.

Results

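S1pr1, S1pr4, S1pr5, Klf2, Klf3 and Cd69 were listed together as genes of lymphocyte egress from a tissue and residence in it. The part of each gene in these processes was not tested. Their transcripts were followed here in T cells, NK cells and monocytes isolated from mouse melanomas. The genes are 6 of the 32285 counted in the sort of all CD45-positive cells and of the 31053 counted in the T cell sort. All 6 were present in both. The genes were chosen by symbol with their levels in ZsG-positive and ZsG-negative T cells, T cell subsets, NK cells and monocytes in view. Ratios between the gates are therefore given as a description and support nothing further. Levels within T cell subsets were in view too, so the order of those subsets is likewise a description.

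The cells came from tumors of a B16-F10 melanoma clone that makes the green fluorescent protein ZsGreen (ZsG) when doxycycline is given. Tumors were grown under the skin of C57BL/6 mice, all of which drank doxycycline, and were taken on day 8, so that all 4 groups share the clone, the strain and the drug. Immune cells were sorted by the ZsG fluorescence they had from the tumor, as CD45-positive cells, and in a separate experiment as CD45-positive TCRβ-positive cells, with 1 single-cell RNA library for each of the 4 gates. TCRβ is the marker that the deposited labels give for the T cell sort, whereas the study's methods name CD3. By the study's account the CD45 sort took only bright cells as ZsG-positive, so that its ZsG-negative gate also held most of the lymphocytes with ZsG. Its ZsG-negative T cells and NK cells are therefore not cells without ZsG, and its ratios do not compare the same cells as those of the T cell sort. The design text names a single tumor for the CD45 sort, whereas the study's text speaks of tumors. The number, age and sex of the mice are not given in the sources used here.

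Sphingosine 1-phosphate (S1P) is a lipid that is abundant in blood and lymph and scarce inside tissues, and lymphocytes follow it out of a tissue through S1PR1. KLF2 is a transcription factor of resting and circulating lymphocytes that drives transcription of S1pr1. CD69, a surface protein made soon after activation, binds S1PR1 and takes it off the cell surface, and it marks T cells that stay in tissues.

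After filtering, 4699 ZsG-negative and 4123 ZsG-positive cells of the CD45 sort and 948 and 1879 cells of the T cell sort remained. Cells with at least 3 unique molecular identifiers (UMIs, each standing for 1 captured transcript) over Cd3d, Cd3e and Cd3g were taken as T cells, which left 658 ZsG-negative and 785 ZsG-positive T cells in the T cell sort, with medians of 5827 and 6704 UMIs per cell. The T cell marker list holds Trac and Trbc2 beside Cd3d, Cd3e and Cd3g, by which the cells were taken. Its genes, 5 of 5 detected, summed to 4692 and 4437 CPM in these cells, in part through that choice. CPM is the number of UMIs per 1000000 UMIs of the summed cells. The labels of the T cell sort give opposite orders for its libraries. The gates were assigned from the cell numbers of the study, and every T cell sort direction below would reverse if they were exchanged. Libraries of a sort shared few cell barcodes, 6 of 10605 in the CD45 sort and 1 of 3532 in the T cell sort. With 1 library per gate no test between gates was possible. All intervals are 95% intervals that cover counting error only, exact ones of UMIs for levels and ratios and of cells for shares, and Newcombe's for differences between shares, and neighbours in an order are called different only where their intervals do not overlap.

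On the GRCm38 build the receptor genes lie apart from each other, S1pr1 at chr3:115710433-115715072, S1pr4 at chr10:81497747-81500132 and S1pr5 at chr9:21242912-21248443, all on the minus strand. Klf2 lies at chr8:72319033-72321656 and Klf3 at chr5:64803388-64832901, both on the plus strand, and Cd69 at chr6:129267325-129275436 on the minus strand. Promoter sequences from RefSeq (GRCm38) matched 4 of the 6 genes. S1pr1 and Cd69 were not among them. The promoters of Klf2 and S1pr5 are shown because the subsets with the most S1pr5 were also those with the most Klf2 in the T cell sort, NK cells and monocytes below. Each is the 250 bases before the transcript start, 5′ to 3′ on the gene's own strand, and capitals mark CACCC, or GGGTG where it lies on the other strand, the core letters of the box that Krüppel-like factors bind.
Klf2, chr8:72318812-72319061, plus strand: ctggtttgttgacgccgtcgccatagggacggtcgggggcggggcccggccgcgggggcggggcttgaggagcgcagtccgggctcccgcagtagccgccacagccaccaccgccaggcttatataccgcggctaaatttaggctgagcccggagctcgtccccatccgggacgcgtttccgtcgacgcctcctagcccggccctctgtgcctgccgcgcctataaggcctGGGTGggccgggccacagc
S1pr5, chr9:21248444-21248693, minus strand: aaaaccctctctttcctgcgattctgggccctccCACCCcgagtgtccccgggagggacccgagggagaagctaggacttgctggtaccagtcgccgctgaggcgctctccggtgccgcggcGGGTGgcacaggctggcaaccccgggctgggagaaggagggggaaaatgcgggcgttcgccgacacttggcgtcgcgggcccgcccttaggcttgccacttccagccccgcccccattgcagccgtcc
RefSeq and GENCODE place some starts differently. The last 29 bases printed for Klf2 lie inside the gene interval given above, as do the last 133 of the Klf3 window, whereas the S1pr5 window ends at the gene interval. The Klf2 window held CACCC letters at 1 place, 19 bases before the RefSeq start and inside that interval. The S1pr5 promoter held CACCC letters at 2 places, 216 and 128 bases before the start, S1pr4 at 1 place and Klf3 at 5, 3 of them inside its gene interval. CACCC letters occurred in 52.0% of 32851 promoters of the same length, so their presence does not set these genes apart. A match of letters is a description of the sequence and not a binding site.

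In the T cell sort S1pr1, the main egress receptor, stood at 143 CPM (95% interval 132 to 153, 727 UMIs) in ZsG-negative T cells and at 51.4 (46.5 to 56.6, 406 UMIs) in ZsG-positive T cells, a log2 ratio of -1.47 (-1.65 to -1.30). S1pr1 UMIs were found in 48.6% of ZsG-negative and 27.3% of ZsG-positive T cells, and in 26.1% and 13.1% after every cell was thinned to 2000 UMIs. Both levels lie far above the background of cells that should lack the gene. In kept cells of the same sort with no CD3 UMI, at medians of 8930 and 8528 UMIs, S1pr1 stood at 3.57 and 1.69 CPM and was found in 2.95% and 1.15% of cells. S1pr4, a receptor made mainly by blood cells, stood at 67.5 and 54.3 CPM, a log2 ratio of -0.31 (-0.52 to -0.10). S1pr5, which guides NK cells and patrolling monocytes, was rare in T cells, at 4.71 CPM (24 UMIs) and 1.90 (15 UMIs).

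The transcription factors were lower in the ZsG-positive T cells too. Klf2 stood at 279.7 and 165 CPM, a log2 ratio of -0.76 (-0.87 to -0.65), and was found in 52.7% and 43.9% of cells, or 33.4% and 24.5% after thinning. Klf3, a related zinc-finger factor that mainly represses transcription, stood at 91.6 and 46.4, a log2 ratio of -0.98 (-1.18 to -0.78). Cd69 differed little, at 237 and 207 CPM, a log2 ratio of -0.20 (-0.31 to -0.09). Its share of positive cells was 57.3% and 62.2%, and 32.2% and 33.0% after thinning, so that the level and the share did not order the gates the same way.

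Of the 6 genes, 2 (S1pr1 and S1pr5) were at least 2-fold lower in ZsG-positive T cells and 0 were at least 2-fold higher, where 1.50% of the 10529 genes with at least 20 UMIs were lower by that fold and 4.96% were higher. The median log2 ratio was -0.87 over the 6 genes and 0.07 over all genes counted. Since the genes were chosen on this contrast, nothing is read from the count. The gene lists below hold some of the 6 genes, S1pr1, Klf2 and Klf3 among the recirculation genes and Cd69 among the residence genes. Of 12 recirculation genes, all measured, 4 were at least 2-fold lower and 0 higher, with a median of -0.70. Beside S1pr1 these were Il7r, the interleukin 7 receptor of resting T cells (log2 ratio -1.14), and Lef1 (-1.36) and Tcf7 (-1.05), transcription factors of naive and memory T cells. Ccr7, the chemokine receptor that guides cells into lymph nodes, gave 0.29. Of 11 measured residence genes, 1 was at least 2-fold lower (Cd101, -1.04). In the same list 2 were higher, Rgs16 (1.03), a dampener of G protein signals, and Cdh1 (1.27, from 5 and 20 UMIs). The interval of Cdh1 (-0.09 to 3.14) includes 0. Cxcr6 gave 0.04, Rgs1 -0.22 and Itgae, the CD103 integrin of resident T cells, 0.18. In the list of S1P receptors and S1P metabolism, 2 of 11 measured genes were lower, both of them receptors named above, and the remaining 9 stayed within 2-fold. Of 14 immediate early and dissociation genes, 2 (Atf3 and Fosb) were higher and 0 lower.

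Markers of other cells were present in both libraries of the T cell sort. The 9 monocyte and macrophage markers, all detected, had summed levels of 1221 (ZsG-negative) and 2032 (ZsG-positive) CPM, and 14 and 64 cells lay in clusters led by macrophage or plasmacytoid dendritic cell genes. Without those clusters S1pr1 gave a log2 ratio of -1.40, S1pr4 -0.26, S1pr5 -1.16, Klf2 -0.96, Klf3 -1.07 and Cd69 -0.18. Then 3 of the 6 genes (Klf3 also) were at least 2-fold lower, beside 1.79% of 9966 genes lower and 3.94% higher. Of the recirculation genes 4 were lower (S1pr1, Il7r, Lef1 and Klf3), and of the immediate early and dissociation genes 0 were higher or lower.

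The plot of levels by T cell subset shows a wide range among subsets within a library, for S1pr1 from 10.6 to 319 CPM in ZsG-negative cells. S1pr1 was highest in naive-like T cells, at 319 (279 to 363), followed by Th1-like cells at 290.4 (239 to 349). The intervals of these subsets overlap. The Th1-like name, in both sorts, rests on a list of Cd4, Cd40lg, Ramp3, Tnfsf8 and Bhlhe40. It therefore stands for CD4 T cells outside the Treg-like cluster, and a Th1 state was not tested. Ly49 T-like cells, which carry Klra genes, stood at 211 (182 to 243), CD8 effector memory-like (CD8-EM-like) cells at 146 (122 to 174) and Treg-like cells at 58.3 (28.0 to 107). Cycling cells stood at 16.7 (8.01 to 30.7) and exhausted-like (CD8-Tex-like) cells at 10.6 (4.58 to 20.9). The interval of cycling cells overlaps that of Treg-like cells, whereas CD8-Tex-like cells lay below Treg-like and all higher subsets. Among these named subsets Klf2 had a like order at its ends, with 608 in naive-like cells, 75.6 in CD8-Tex-like cells and 55.1 in cycling cells. In the same subsets Klf3 ranged from 157 in naive-like cells to 7.96 in CD8-Tex-like cells.

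**Figure D1:**
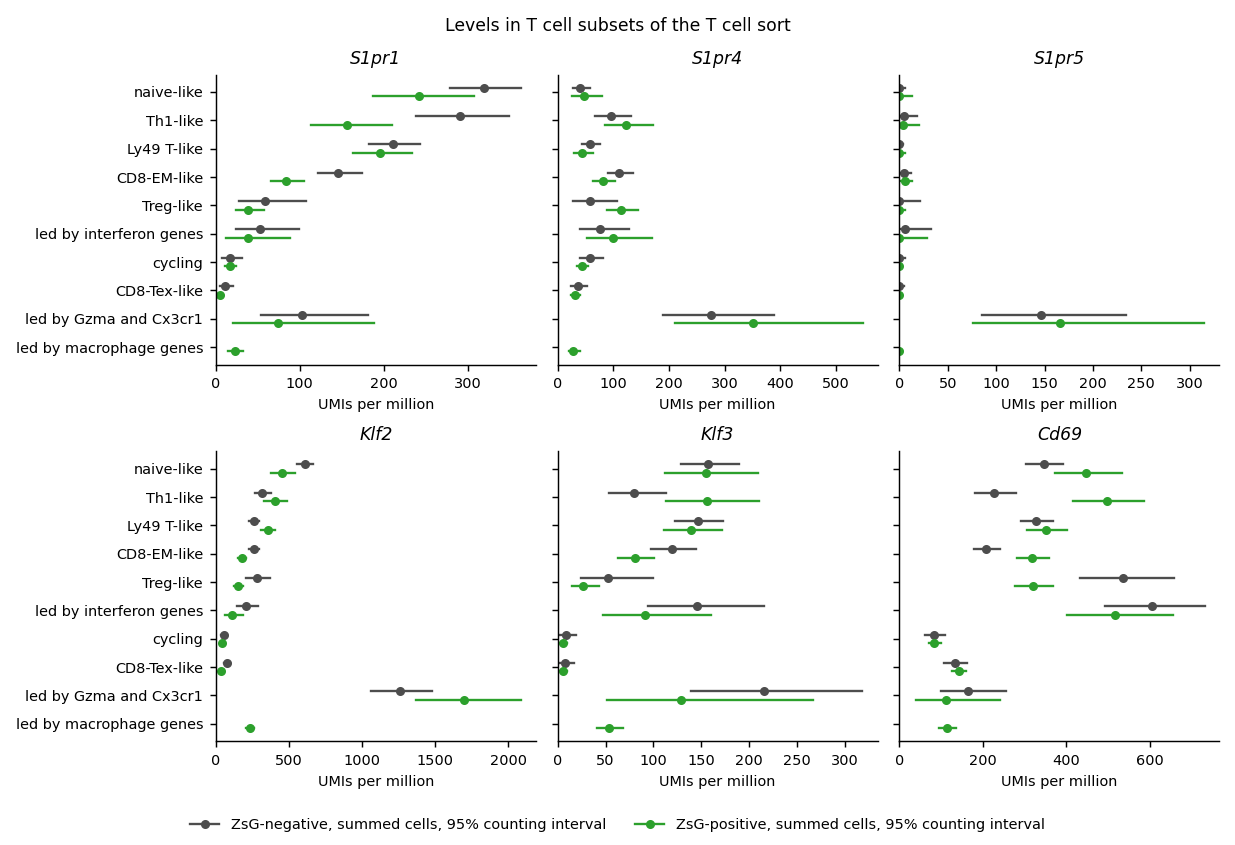
Levels of the 6 genes in T cell subsets of the T cell sort, in CPM on the horizontal axes, with points for the summed cells of each library and lines for exact 95% counting intervals. S1pr1 ran from 319 in ZsG-negative naive-like cells to 4.63 in ZsG-positive CD8-Tex-like cells, and S1pr5 stood above the other subsets in the cluster led by Gzma and Cx3cr1.

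The ZsG-positive library held fewer naive-like cells (43, against 101 in the ZsG-negative library) and more CD8-Tex-like (143 against 59), Treg-like (92 against 29) and cycling cells (84 against 24), which are the subsets where S1pr1 was low. Over the 8 subsets with at least 20 cells in both libraries, the log2 ratio of S1pr1 was -1.41. Giving each ZsG-negative subset the share of UMIs it has in the ZsG-positive library, with levels unchanged, yielded -0.92. The remaining -0.49 came from levels within subsets. These weights are UMIs and not cells, so subsets of deep cells, such as cycling cells (median 20084 UMIs), weigh more than their cell numbers. A weighting by cells was not made. For Klf2 the same steps gave -0.96, -0.64 and -0.32, and for Klf3 -1.05, -0.82 and -0.23. For Cd69 they gave -0.19, -0.28 and 0.10, where 0.10 is a net value over subsets that differed in both directions. For S1pr4 they gave -0.21, -0.13 and -0.08. For S1pr5 they gave -0.73, -0.66 and -0.06 from 7 and 6 UMIs, since the cluster with most S1pr5 was too small to enter. This split was added after the data were seen.

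**Figure D2:**
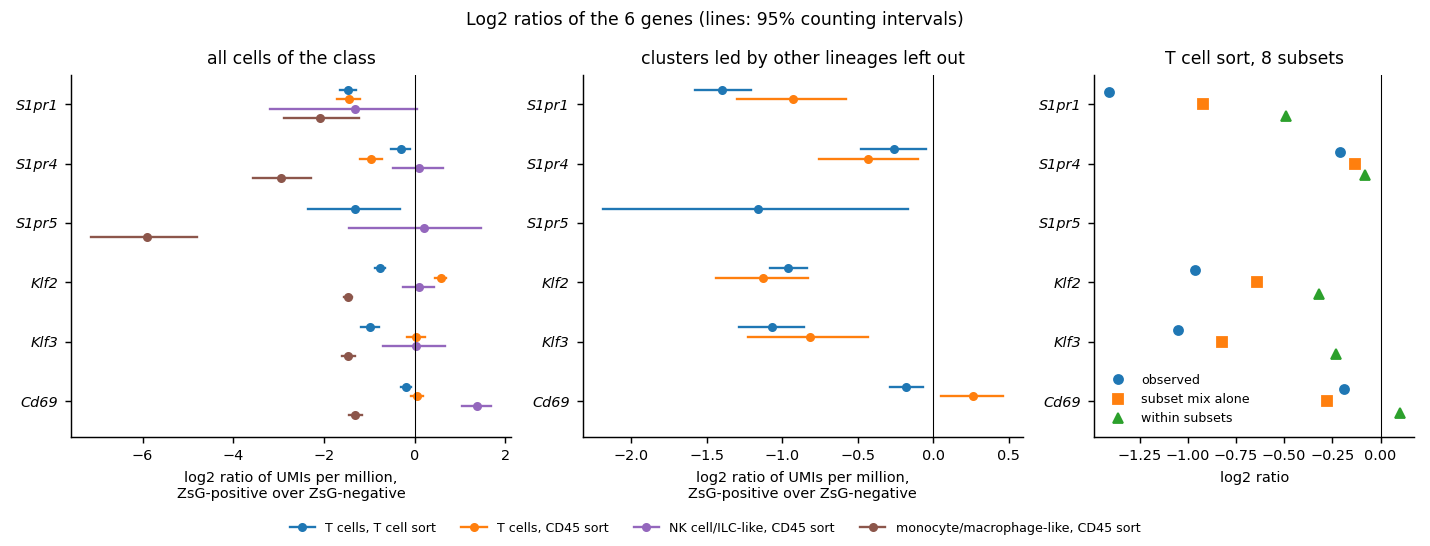
Log2 ratios of ZsG-positive over ZsG-negative levels, with lines for exact 95% counting intervals where shown. The points of the split by subset mix give the observed ratio, the part from the mix of subsets and the part within subsets. They are for T cells of the T cell sort, with S1pr5 left out, and for S1pr1 these were -1.41, -0.92 and -0.49.

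Within subsets the gates differed in gene-specific ways. S1pr1 was lower in ZsG-positive CD8-EM-like cells, at 83.8 CPM against 146, a log2 ratio of -0.80 (-1.23 to -0.38), and in ZsG-positive Th1-like cells, at 156 against 290.4, a log2 ratio of -0.90 (-1.44 to -0.38). In Ly49 T-like cells it stood at 196 against 211, and the interval of the ratio (-0.45 to 0.23) includes 0. In naive-like cells its ratio was -0.40 (-0.82 to -0.00). CD8-Tex-like (-1.20), Treg-like (-0.61), interferon-led (-0.46) and cycling cells (-0.02) had S1pr1 ratios whose intervals include 0. Klf2 was lower in ZsG-positive CD8-EM-like cells (178 against 260.3), CD8-Tex-like cells (36.6 against 75.6), Treg-like cells (153 against 280.1) and naive-like cells (455 against 608). It was higher in ZsG-positive Ly49 T-like cells, at 356 against 258, a log2 ratio of 0.47 (0.19 to 0.74). Klf3 was higher in ZsG-positive Th1-like cells, at 156 against 79.7, a log2 ratio of 0.97 (0.27 to 1.68). It was lower in ZsG-positive CD8-EM-like cells, at 80.4 against 119, a log2 ratio of -0.56 (-1.02 to -0.11).

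Cd69 split the subsets by direction. It was higher in ZsG-positive Th1-like cells, at 497 against 226 CPM, a log2 ratio of 1.14 (0.74 to 1.54), and in ZsG-positive CD8-EM-like cells, at 318 against 208, a ratio of 0.62 (0.34 to 0.89). In Treg-like cells it was lower in the ZsG-positive library, at 319.8 against 537, a ratio of -0.75 (-1.11 to -0.37). The Treg-like cells with the higher Cd69 also carried more immediate early and dissociation transcripts, which summed to 7241 CPM in the ZsG-negative and 5059 in the ZsG-positive library, and their part in the result was not tested. In Th1-like cells that list stood at 5253 and 5208, and in CD8-EM-like cells at 3047 and 3267.

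A small cluster led by Gzma and Cx3cr1, with 24 ZsG-negative and 13 ZsG-positive cells, held 17 of the 24 and 9 of the 15 S1pr5 UMIs of the T cells of this sort. Its S1pr5 level was 146 (85.3 to 234) and 166 (76.0 to 315) CPM, and S1pr5 was found in 62.5% and 46.2% of its cells. It also had the highest Klf2 level of the T cell subsets, at 1258 (1062 to 1479) and 1699 (1369.5 to 2084), and the highest S1pr4 level, at 276 and 351. Its S1pr1 level was lower than that of naive-like cells, at 103 (53.4 to 181) and 73.9 (20.1 to 189). Leading genes of the cluster include Klrg1 and Zeb2, which mark terminally differentiated effector cells. S1pr5 is itself among the leading genes, but all 6 genes were left out when cells were clustered.

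T cells of the CD45 sort numbered 1653 in the ZsG-negative and 393 in the ZsG-positive library, with medians of 7277 and 14825 UMIs per cell. Of the 393, 194 lay in a cluster led by macrophage genes. The 9 monocyte and macrophage markers, all detected, summed to 186 CPM in ZsG-negative and 7369 in ZsG-positive T cells, and to 11185 in that cluster. These cells carried transcripts of both lineages. When all cells of the CD45 sort were clustered, a cluster led by Foxp3 with macrophage genes held 3 ZsG-negative and 123 ZsG-positive cells. The Treg-like cluster of that clustering held 84 and 30. Leaving out clusters led by other lineages may thus also remove Foxp3-positive T cells, and the number removed was not counted. Values are therefore given with all cells and without clusters led by other lineages, which leaves 1491 and 194 cells.

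S1pr1 was lower in ZsG-positive T cells of this sort either way, at 21.1 against 57.6 CPM with all cells (log2 ratio -1.45, -1.71 to -1.20) and at 30.7 against 58.6 without the other clusters (-0.93, -1.30 to -0.58). S1pr1 UMIs were found in 38.7% and 22.1% of T cells and in 19.5% and 9.92% after thinning, whereas 1.40% of C1q macrophage-like cells, at a median of 11842 UMIs, had 1. S1pr4 was also lower either way, with log2 ratios of -0.96 and -0.43. Klf2 turned with the choice of cells, from 93.8 and 139 CPM with all cells (0.57, 0.45 to 0.68) to 89.1 and 40.8 without the other clusters (-1.13, -1.44 to -0.83). The cells of the macrophage-led cluster themselves stood at 192 for Klf2. Klf3 gave 0.03 and -0.82, and Cd69 gave 0.05 and 0.26. For S1pr5, 29 UMIs were counted in ZsG-negative T cells, 12 of them in a cluster led by NK cell genes, and 0 in ZsG-positive T cells, where 3 UMIs would have stood at 0.451 CPM.

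With all cells, 2 of the 6 genes (S1pr1 and S1pr5) were at least 2-fold lower in ZsG-positive T cells of the CD45 sort and 0 were higher, beside 4.58% of 11826 genes lower and 12.4% higher. The median over the 6 genes was -0.46, and over all genes counted -0.03. Of the 12 recirculation genes 3 were lower (S1pr1, Lef1 at -1.43 and Tcf7 at -1.49), and of 11 measured residence genes 1 was lower (Cxcr6, -1.03). Of 11 genes of the S1P list 2 were lower and 2 were higher, the lyase Sgpl1 (1.88) and the receptor S1pr2 (2.60). Of the 14 immediate early and dissociation genes, 9 were higher and 0 lower. In ZsG-positive monocyte/macrophage-like cells Sgpl1 stood at 84.2 CPM and S1pr2 at 25.8, against 13.3 and 2.97 in ZsG-negative T cells. Without clusters led by other lineages, 1 of the 5 genes that could be counted (Klf2) was at least 2-fold lower and 0 were higher, beside 2.83% of 11047 genes lower and 3.42% higher. Of the recirculation genes 1 was then lower (Klf2), of 10 measured residence genes 1 was lower (Itgae, 34 and 0 UMIs), and of 10 measured S1P genes 0 were lower and 1 was higher (S1pr2, 1.48). Sgpl1 gave 0.31, and 3 of the immediate early and dissociation genes were higher.

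In the CD45 sort too, S1pr1 was highest in naive-like cells and low in CD8-Tex-like and cycling cells. ZsG-negative naive-like cells stood at 268 CPM (225 to 316), Ly49 T-like cells led by Klra1, whose interval overlaps, at 236 (212 to 263) and those led by Klra6 and Nsg2 at 189 (167 to 213). CD8-EM-like cells stood at 162 (140.5 to 186) and Th1-like cells, next to the naive-like cells in the T cell sort, at 148 (105 to 204). Treg-like cells stood at 35.3 (26.6 to 46.0), CD8-Tex-like cells at 5.43 (3.40 to 8.22) and cycling cells led by Ccl1 and Pclaf at 2.47 (1.41 to 4.01). Within subsets the directions of Cd69 were those of the T cell sort for CD8-EM-like cells, at 112 and 310.1 CPM (log2 ratio 1.47, 1.01 to 1.91), and for Treg-like cells, at 112 and 46.2 (-1.27, -2.09 to -0.55). Klf2 was lower in the ZsG-positive library in both, from 299 to 145 in CD8-EM-like cells and from 75.2 to 19.0 in Treg-like cells. These ZsG-positive subsets held 42 and 23 cells. Other ratios whose intervals left out 0 in the T cell sort had intervals here that include 0. S1pr1 gave -0.33 (-0.99 to 0.28) in CD8-EM-like cells. Klf2 gave 0.16 (-1.34 to 1.35) in CD8-Tex-like cells and -0.58 (-1.40 to 0.14) in Ly49 T-like cells led by Klra6 and Nsg2. S1pr4 in Treg-like cells gave -1.54 (-2.71 to -0.57) here and 0.96 (-0.01 to 2.08) in the T cell sort. The monocyte and macrophage markers summed to 87.9 CPM in ZsG-negative and 1390.1 in ZsG-positive CD8-EM-like cells, and their part in the Cd69 difference was not tested. In Treg-like cells they summed to 254 and 256. Over the 5 subsets with at least 20 cells in both libraries, S1pr1 gave -0.58 as observed, -0.16 from the mix of subsets and -0.42 within subsets, and Klf2 gave -0.86, -0.04 and -0.82. The share carried by the mix was thus smaller than in the T cell sort, over fewer subsets and without naive-like and Th1-like cells.

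Whether a cell had a Klf2 UMI moved with whether it had an S1pr1 UMI. At 2000 UMIs per cell and without clusters led by other lineages, S1pr1 was found in 36.3% of ZsG-negative T cells of the T cell sort that had Klf2 and in 21.5% of those that did not, a difference of 14.7 percentage points (7.33 to 22.3). In ZsG-positive T cells the shares were 27.4% and 9.59%, a difference of 17.8 points (11 to 25.3). In the CD45 sort the ZsG-negative T cells differed by 21.8 points (16.7 to 27.2) and the ZsG-positive ones by 16.5 points (1.99 to 35.5). NK cells showed a smaller one, 9.36% against 4.46%, or 4.90 points (2.53 to 7.68). Cells are not replicates, and these shares describe the libraries. Within single subsets a stricter rule was used, that the intervals of the shares with and without Klf2 do not overlap. Subsets and whole classes were therefore not judged alike, and a relation within subsets is not excluded. Only naive-like, Th1-like, Ly49 T-like, CD8-EM-like and CD8-Tex-like T cells were taken, with enough cells after thinning. For NK cells these were the clusters led by Cma1 and Cx3cr1 and by Ret and Sult2b1. Treg-like and cycling cells were not examined. Of 19 such subsets by library, 1 had intervals that did not overlap. These were the Th1-like cells of the ZsG-negative CD45 library, with 55.0% of 20 cells and 7.41% of 27 cells. ZsG-negative Th1-like cells of the T cell sort had the other direction, with 33.3% of 27 cells and 41.1% of 56 cells, and overlapping intervals. Whole classes pool subsets where both genes were high (naive-like) or both low (CD8-Tex-like and cycling). The part of this pooling in the class differences was not tested.

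For Cd69, whose protein takes S1PR1 off the surface, no such relation of transcripts held across depths. The differences in the share of S1pr1-positive cells between cells with and without a Cd69 UMI were 5.43 points (-1.79 to 13) and 2.35 points (-2.87 to 8.13) in the T cell sort, ZsG-negative and ZsG-positive. They were 4.08 and -0.668 points in T cells of the CD45 sort and -2.19 points (-4.19 to 0.932) in NK cells. All these intervals include 0. At other depths some did not. In T cells of the CD45 sort thinned to 4000 UMIs the differences were 10.8 points (5.36 to 16.4) and 25.8 points (11.9 to 42.3), and in NK cells without thinning the difference was -3.04 points (-5.44 to -0.173), so that neither its size nor its sign was stable.

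**Figure D3:**
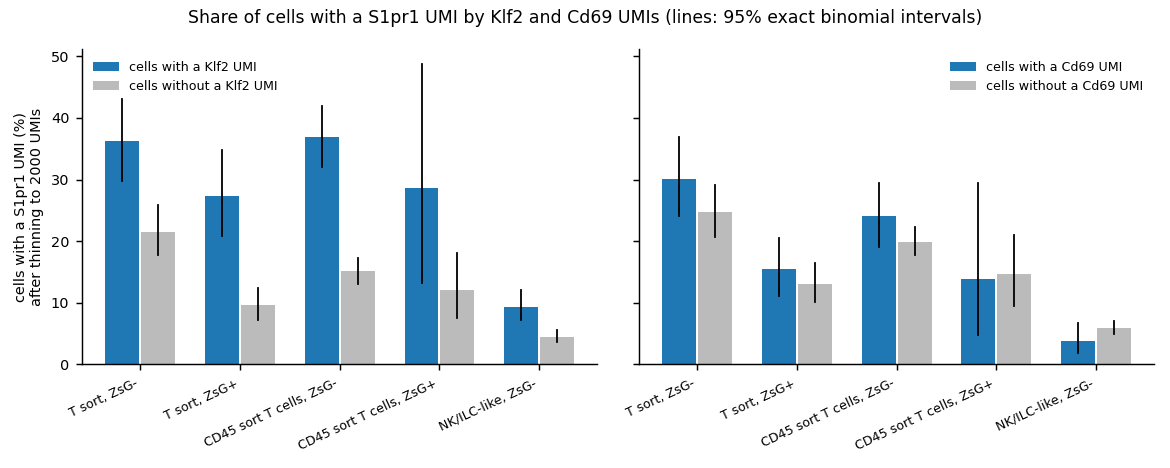
Share of cells with an S1pr1 UMI, in percent after thinning to 2000 UMIs, among cells with and without a Klf2 UMI and among cells with and without a Cd69 UMI, with exact 95% binomial intervals as lines. Cells with a Klf2 UMI had the higher share in all 5 groups of cells (36.3% against 21.5% in ZsG-negative T cells of the T cell sort), and for Cd69 the intervals of all 5 differences include 0.

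NK cell and innate lymphoid cell-like (NK cell/ILC-like) cells numbered 2409 in the ZsG-negative and 110 in the ZsG-positive library of the CD45 sort. Of the 110, 96 lay in a cluster led by macrophage genes, where 8 of the 9 monocyte and macrophage markers were detected (Adgre1 was at 0) and summed to 911 CPM. In all ZsG-positive NK cell/ILC-like cells that sum was 737, and in ZsG-negative cells, where all 9 were detected, it was 41.3. The 14 ZsG-positive cells outside that cluster are too few for a value. Cd69 stood at 68.2 CPM in ZsG-negative and 177 in ZsG-positive cells (log2 ratio 1.37, 1.05 to 1.69), and was found in 21.2% and 40.0% of cells, or 11.2% and 26.6% after thinning. The remaining genes had ratios whose intervals include 0. Klf2 stood at 140.3 and 149 CPM, S1pr4 at 55.6 and 59.6, Klf3 at 39.1 and 39.7, S1pr5 at 8.66 (123 UMIs) and 9.93 (5 UMIs), and S1pr1 at 19.8 (281 UMIs) and 7.95 (4 UMIs). S1pr1 was the 1 gene at least 2-fold lower, beside 6.05% of 10570 genes. It was no longer so with the class set by Ncr1 and Klrb1c (-0.59) or with a mitochondrial limit of 5% (-0.78). Cd69 was the 1 gene at least 2-fold higher, beside 7.38%. The medians were 0.11 over the 6 genes and 0.04 over all genes counted. Of 12 recirculation genes 2 were lower and 0 higher, of 9 measured residence genes 2 were lower and 1 higher, and of 11 S1P genes 1 was lower and 1 higher. Of the 14 immediate early and dissociation genes 1 was lower and 5 were higher.

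Among ZsG-negative NK cell/ILC-like subsets, S1pr5 was concentrated in the NK cell-like cluster led by Cma1 and Cx3cr1 (216 cells), at 66.4 CPM (49.5 to 87.4), or 51 of the 123 S1pr5 UMIs. The cluster led by Fcrl6 and Itgam followed at 18.5 (11.6 to 28.0), ILC1-like cells stood at 1.99 from 1 UMI, and the cluster led by Gzmc and Spp1 stood at 0.335. The cluster led by Cma1 and Cx3cr1 was also highest for Klf2, at 642 (587 to 702), and for Klf3, at 115 (92.0 to 141), whose interval overlaps that of the cluster led by Ret and Sult2b1 at 80.3 (67.8 to 94.5). S1pr1 had another order. It was highest in the cluster led by Ret and Sult2b1, at 55.9 (45.6 to 68.0), and stood at 22.1 (12.9 to 35.5) in the cluster led by Cma1 and Cx3cr1, at 7.97 in ILC1-like cells and at 2.01 in the cluster led by Gzmc and Spp1. Cycling NK cells had 0 S1pr1 UMIs in 1534393, where 3 would have stood at 1.96 CPM. The cluster led by Hspa1a and Jun had the next highest Klf2, at 386 (329 to 451), with S1pr5 at 2.40 from 1 UMI. Its immediate early and dissociation genes summed to 7033 CPM, against 2880.4 to 4649 in the other named clusters, and their part in its Klf2 level was not tested.

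**Figure D4:**
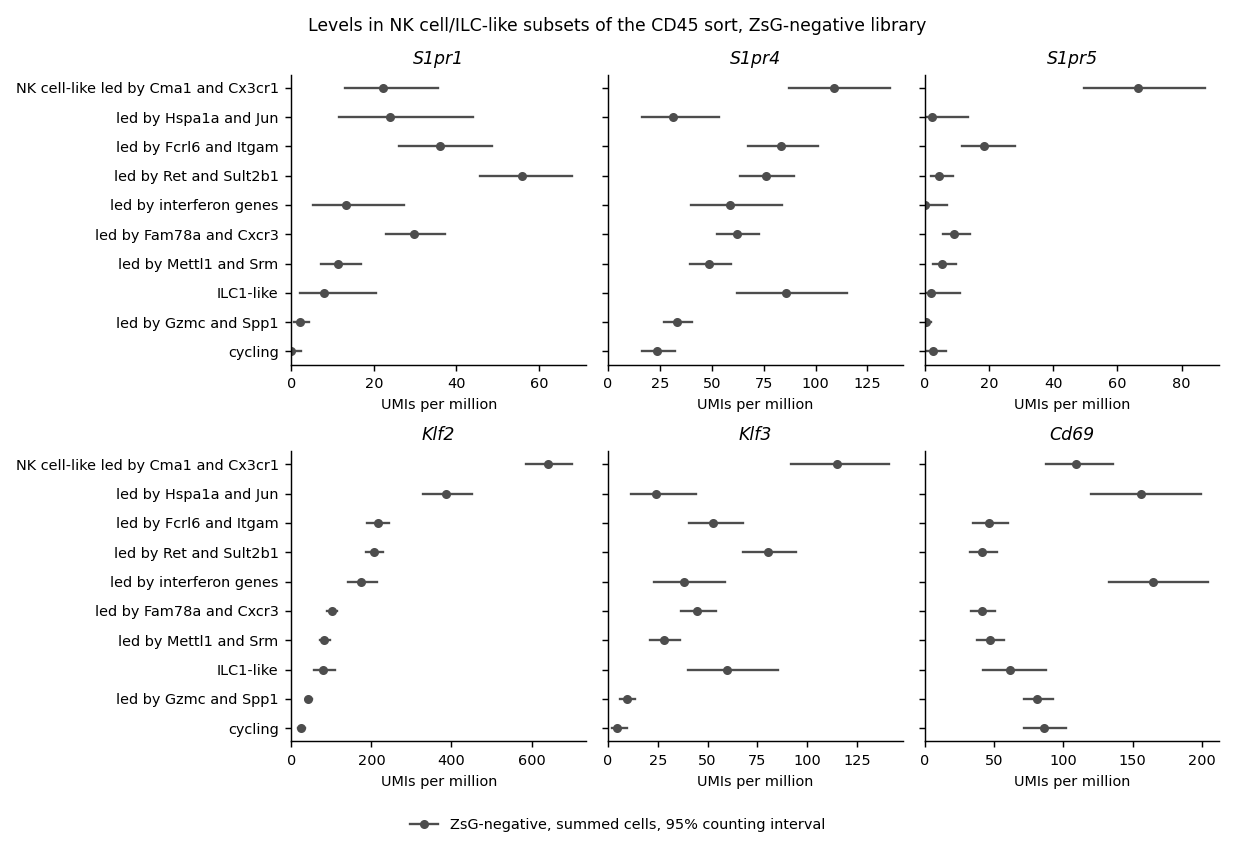
Levels of the 6 genes in NK cell/ILC-like subsets of the ZsG-negative CD45 library, in CPM on the horizontal axes, with lines for exact 95% counting intervals. The cluster led by Cma1 and Cx3cr1 was highest for S1pr5 (66.4) and Klf2 (642), and the cluster led by Ret and Sult2b1 for S1pr1 (55.9).

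In monocyte/macrophage-like cells (260 ZsG-negative, 3092 ZsG-positive) all 6 genes were at least 2-fold lower in the ZsG-positive library and 0 were higher, beside 13.3% of 11663 genes lower and 14.6% higher. The median was -1.80 over the 6 genes and -0.02 over all genes counted, and the choice of the genes used this contrast. Klf2 stood at 666 and 239.9 CPM (log2 ratio -1.47, -1.55 to -1.39), Klf3 at 200.1 and 72.4, and Cd69 at 195 and 78.9. The receptors were rare, S1pr1 at 7.35 and 1.73, S1pr4 at 14.3 and 1.86, and S1pr5 at 14.7 (34 UMIs) and 0.246 (9 UMIs). With the class set by Csf1r, Lyz2 and Fcgr1, S1pr1 gave a log2 ratio of -0.57 in place of -2.09 and was not 2-fold lower. With classical and non-classical monocyte-like cells weighted equally, S1pr4 gave -1.35 in place of -2.94. Only these subsets had at least 20 cells in both libraries, so that value leaves out macrophage-like cells. Its classical part rests on 2 and 4 UMIs. The gates held different cells. Of the 260 ZsG-negative cells, 196 were non-classical monocyte-like and 59 classical monocyte-like, and the other 3 subsets, all macrophage-like, held 5 ZsG-negative cells. Of 12 recirculation genes 10 were at least 2-fold lower and 1 higher, and of 11 measured residence genes 6 were lower and 1 higher. Of 14 measured S1P genes 3 were lower, the 3 receptors named here, and 2 were higher, and of 14 immediate early and dissociation genes 3 were lower and 2 higher.

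S1pr5 in this class was highest in non-classical monocyte-like cells, the patrolling cells of the blood. All 34 ZsG-negative S1pr5 UMIs lay in them, at 20 CPM (13.8 to 27.9), and the 33 ZsG-positive cells of this kind stood at 16.8 (3.47 to 49.2, 3 UMIs). Of the 9 ZsG-positive S1pr5 UMIs of the class, 3 lay in classical monocyte-like cells, at 0.431 CPM. ZsG-positive C1q macrophage-like cells stood at 0.0519 from 1 UMI in 19254751. Klf2 had its highest level in non-classical monocyte-like cells, where the ZsG-negative library had 755 CPM (715 to 798) and the ZsG-positive library 629 (518 to 756), with a ratio of -0.27 (-0.56 to 0.01). Classical monocyte-like cells had 411 CPM (360.0 to 468) in the ZsG-negative library against 246 (234 to 257), for a ratio on the log2 scale of -0.74 (-0.94 to -0.54). Cd69 was lower in the ZsG-positive library in classical monocyte-like cells, at 147 against 372 (-1.34, -1.56 to -1.12), and in non-classical ones, at 78.6 against 141 (-0.85, -1.74 to -0.07). Klf3 in classical monocyte-like cells stood at 112 and 91.6, and the interval of the ratio (-0.67 to 0.11) includes 0.

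**Figure D5:**
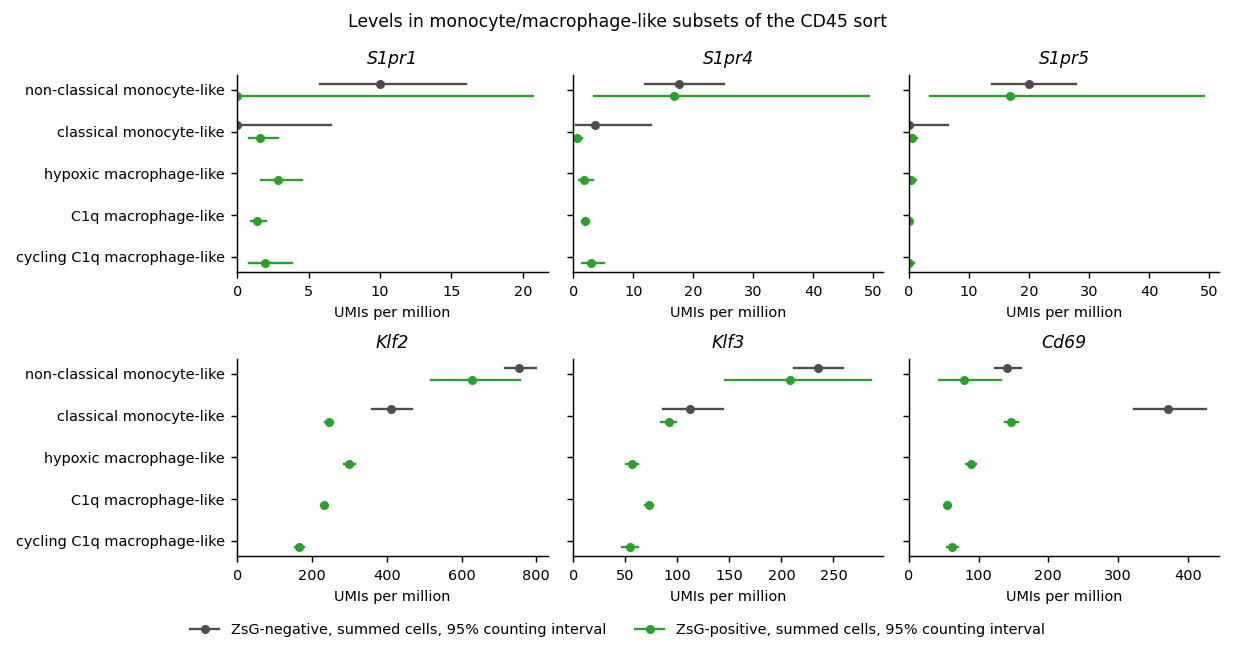
Levels of the 6 genes in monocyte/macrophage-like subsets of the CD45 sort, in CPM on the horizontal axes, for subsets with at least 20 cells in a library, with lines for exact 95% counting intervals. Non-classical monocyte-like cells were highest for Klf2 (755 and 629) and S1pr5 (20 and 16.8), and macrophage-like subsets had S1pr1, S1pr4 and S1pr5 near 0.

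S1pr5 and Klf2 had their highest levels in the same subset in the T cell sort (the cluster led by Gzma and Cx3cr1), in ZsG-negative NK cell/ILC-like cells (the cluster led by Cma1 and Cx3cr1) and in monocytes (non-classical monocyte-like cells). This match was noticed after the values were seen and is a description over 3 subsets. Cx3cr1, a chemokine receptor of patrolling and effector cells, is among the leading genes of all 3. T cells of the CD45 sort did not show it. There S1pr5 was highest in the cluster led by NK cell genes (9.39 CPM, 12 UMIs) and CD8-EM-like cells (8.87, 11 UMIs), and Klf2 in Th1-like cells (359) and naive-like cells (336). S1pr1 peaked elsewhere in T cells and NK cells. In monocytes all 17 ZsG-negative S1pr1 UMIs lay in non-classical monocyte-like cells, at 9.98 CPM. The 33 ZsG-positive cells of this kind had 0, where 3 UMIs would have stood at 16.8 CPM. That is above the ZsG-negative level, and the upper bound of the log2 ratio is 1.21, so the 0 does not show a difference between libraries. The 63 ZsG-positive UMIs lay in other subsets.

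The genes with the pattern most like S1pr1, S1pr5, Klf2 and Cd69 were named, and those most like S1pr4 and Klf3 were not sought. They were named from 36 profiles of subsets or classes by library with at least 50 cells, over 10016 genes. The measure was Pearson's r of log2(CPM + 1). The profiles come from both sorts, whose counts were made with different software versions. They also share libraries and depth, and r is a description. For S1pr1 these were Pja1 and Thap3 (both 0.90), Cmah, Crlf3 and Sidt1 (all 0.89), while S1pr1 with Klf2 gave 0.48. For Klf2 they were Klf3 (0.89), Kdm7a (0.88), Arl4c (0.86), Il17ra (0.84) and Taok1 (0.83). For Cd69 they were Ifit3b (0.80), Mitd1, Fas and Ifit3 (all 0.75) and Rnf114 (0.73), of which Ifit3b and Ifit3 are interferon-induced. Cd69 stood at 605 and 518 CPM in the interferon-led cluster of the T cell sort, whose 31 and 23 cells were too few to enter these profiles. For S1pr5, measured with few UMIs in most profiles, they were Gpsm3 (0.72), Gpcpd1 and Itgb1 (both 0.71), 1810058I24Rik and Tram1 (both 0.70). S1pr5 with Klf2 gave only 0.31. The cluster led by Gzma and Cx3cr1 of the T cell sort, with 24 and 13 cells, was too small to enter these profiles.

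Few cells lay at the CD3 limit. In ZsG-negative cells of the CD45 sort, the 49 cells with 3 CD3 UMIs, just inside, had S1pr1 at 47.0 CPM and Klf2 at 149.8, and the 73 cells with 2, just outside, had 25.1 and 159.6. In the ZsG-positive library of the CD45 sort, 11 cells with 3 CD3 UMIs had S1pr1 at 44.2 and Klf2 at 272. There 23 cells with 2 had 18.8 and 300.5. In the T cell sort 14 ZsG-negative and 13 ZsG-positive cells had 3 CD3 UMIs, with S1pr1 at 432 (18 UMIs) and 33.2 (3 UMIs). A further 5 and 7 cells had 2, with S1pr1 at 308 (4 UMIs) and 100.3 (3 UMIs).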

How the data were processed

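Single-cell 3′ RNA libraries (Chromium 3′ v3.1) of 4 sorted gates were used, 1 per gate. The deposited values are UMI counts per gene and cell, which the authors made with Cell Ranger (6.1.2, genome mm10, per the submitters' processing notes). The headers name 7.0.0 for the CD45 sort and 6.1.2 for the T cell sort, so single levels were not compared across sorts. The profiles used for Pearson's r take in both sorts, and the part of the version in r was not tested.

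Cells of the CD45 sort with 1000 to 6000 genes and under 10% mitochondrial UMIs, and of the T cell sort with 50 to 6000 genes and under 15%, were kept. Cells were clustered (igraph 0.11.9, leidenalg 0.10.2) on up to 2000 variable genes without the 6 genes or the gene lists, and named from marker lists. No doublet caller was run. Clusters led by another lineage were included and left out in turn. The gene list counts without them were added after the data were seen. Counts were summed per class, subset and library. CPM carries an exact Poisson interval, a share an exact binomial interval, and a log2 ratio, ZsG-positive over ZsG-negative, an exact conditional interval. The ratio step was tested on simulated data. Genes needed 20 UMIs over both libraries for the 2-fold counts. For these counts, the medians and the ratios of list genes other than the 6, 0.5 was added to the UMIs of each library. Genes with 0 UMIs in 1 library, such as Itgae in T cells of the CD45 sort, have a ratio only through that addition. Shares were also taken after thinning to 2000 UMIs (T and NK cells) or 3000 UMIs (monocytes and macrophages), leaving out shallower cells. A count of 0 is given with the level of 3 UMIs. With 1 library per gate no p-value was computed.

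The 6 genes, the gene lists and the marker lists were chosen with earlier results of these data known. Genes of the lists were named where they passed 2-fold in T cells of the T cell sort, together with Ccr7, Rgs1, Itgae and Cxcr6 and 1 gene that is not reported here, as were the 5 genes of highest Pearson's r with S1pr1, S1pr5, Klf2 and Cd69 among genes with at least 200 UMIs. Sgpl1, S1pr2, Klrg1 and Zeb2 were named after their values were seen. Promoters are from RefSeq (GRCm38) and gene positions from GENCODE. Alternatives concerned the scaling, the cell filters, the class rules, the clusters, the depth and the minimum count. Python 3.11.15 was used with numpy 2.4.6, SciPy 1.17.1, pandas 2.3.3 and matplotlib 3.10.9.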

Additional observations from a re-analysis of the deposited data

Results flagged for a closer look

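Several log2 ratios of ZsG-positive over ZsG-negative levels had opposite signs in different subsets or classes, with counting intervals on opposite sides of 0. With 1 library per gate these differences between subsets and classes were not tested. In the T cell sort Klf2 gave 0.47 in Ly49 T-like cells but -0.55 in CD8-EM-like, -1.05 in CD8-Tex-like, -0.87 in Treg-like and -0.42 in naive-like cells. Klf3 gave 0.97 in Th1-like and -0.56 in CD8-EM-like cells.

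Cd69 gave 0.62 in CD8-EM-like, 1.14 in Th1-like and 0.37 in naive-like cells of the T cell sort but -0.75 in Treg-like cells. In the CD45 sort it gave 1.47 in CD8-EM-like cells, 0.82 in Ly49 T-like cells led by Klra6 and Nsg2 and 0.59 in cycling cells led by Ccl1 and Pclaf but -1.27 in Treg-like cells.

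Over whole classes Klf2 gave 0.57 in T cells of the CD45 sort, which turned negative without clusters led by other lineages, and -0.76 in T cells of the T cell sort and -1.47 in monocyte/macrophage-like cells. Cd69 gave 1.37 in NK cell/ILC-like cells, most of which lay in a cluster led by macrophage genes in the ZsG-positive library, and -0.20 in T cells of the T cell sort and -1.31 in monocyte/macrophage-like cells.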

How the results depend on the processing

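No paired analysis was possible because each gate had 1 library. Alternatives to the class ratios, counts and shared-detection differences numbered 154. Of these, 88 stayed within the error of the value given or, for counts of genes, within a fixed fold of it. The others moved beyond that. The fold for counts was a set limit and not an error. The sign differed in 20, many of them for values near 0, and 7 of these were of ratios whose interval left out 0. A further 45 alternatives concern ratios from few UMIs (S1pr5 in the T cell sort, the receptors and Klf3 in NK cells, the receptors in monocytes), of which 5 moved and 4 changed sign. The 5 were S1pr5 -0.06 with the subset mix of the ZsG-positive library, Klf3 0.79 in NK cells set by Ncr1 and Klrb1c, S1pr1 -0.57 and S1pr4 -2.06 in monocytes set by Csf1r, Lyz2 and Fcgr1, and S1pr4 -1.35 with monocyte subsets weighted equally. Unless the construction shows it, the cause was not tested.

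Thinned to 2000 UMIs, T cells of the T cell sort gave S1pr1 -1.09, Klf2 -0.46, Klf3 -0.66 and Cd69 0.03, and those of the CD45 sort S1pr1 -1.12, S1pr4 -1.39, Klf2 -0.26 and Klf3 -0.74. Thinned to 3000 UMIs, monocyte/macrophage-like cells gave Cd69 -0.92. With subsets weighted equally the T cell sort gave S1pr1 -0.56, S1pr4 0.06, Klf2 -0.41, Klf3 -0.32 and Cd69 0.17. Classical and non-classical monocyte-like cells weighted equally, without macrophage-like cells, gave Klf2 -0.50, Klf3 -0.23 and Cd69 -1.10. With the subset mix of the ZsG-positive library for both gates, an alternative chosen after seeing the data, the T cell sort gave S1pr1 -0.49, S1pr4 -0.08, Klf2 -0.32, Klf3 -0.23 and Cd69 0.10, and the CD45 sort S1pr1 -0.42, S1pr4 -0.58, Klf2 -0.82 and Cd69 0.43.

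Without clusters led by other lineages, Klf2 gave -0.96 in the T cell sort, and the CD45 sort gave S1pr1 -0.93, S1pr4 -0.43, Klf2 -1.13, Klf3 -0.82 and Cd69 0.26. With at least 1 CD3 UMI, Klf2 gave -0.63 in the T cell sort, and the CD45 sort gave S1pr4 -1.34, Klf2 0.71 and Klf3 0.22. A mitochondrial limit of 5% gave S1pr1 -0.97, Klf2 1.04 and Klf3 0.66 in T cells of the CD45 sort and Cd69 1.04 in NK cell/ILC-like cells. Totals without mitochondrial and ribosomal protein genes gave Klf2 0.41 and Cd69 -0.11 in T cells of the CD45 sort. Classes set by Ncr1 and Klrb1c gave Klf2 0.72 in NK cells, and by Csf1r, Lyz2 and Fcgr1 gave Klf2 -1.34, Klf3 -1.22 and Cd69 -1.11 in monocytes and macrophages.

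Counts of genes at least 2-fold lower and higher were 55 and 178 in the T cell sort with at least 100 UMIs and 1278 and 1440 with at least 1 UMI. For T cells of the CD45 sort they were 230 and 938, then 1440 and 3093. For NK cell/ILC-like cells they were 264 and 203 with at least 100 UMIs, and 4842 were higher with at least 1 UMI. For monocyte/macrophage-like cells 938 and then 5307 were lower. The minimum sets how many genes enter.

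The difference in S1pr1 detection with and without Klf2 was 25.8 points at 4000 UMIs and 28.8 unthinned in ZsG-negative cells of the T cell sort, and 33.9 and 29.2 in ZsG-negative T cells of the CD45 sort. With and without Cd69 it was -6.23 points unthinned in ZsG-positive cells of the T cell sort, and 10.8 (ZsG-negative) and 25.8 (ZsG-positive) at 4000 UMIs in T cells of the CD45 sort.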

Other observations

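Outside the T cell, NK cell and monocyte classes, the 39 B cell-like cells of the ZsG-negative CD45 library had S1pr1 at 235 CPM (163 to 328), Klf2 at 864, Cd69 at 629 and S1pr4 at 89.9. Plasmacytoid dendritic cell-like (pDC-like) cells, 241 ZsG-negative and 55 ZsG-positive, had S1pr4 at 70.5 and 42.8, Klf2 at 233 and 90.1, and Cd69 at 187 and 133. Conventional DC-like cells, 91 and 459, had Klf2 at 146 and 151.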
